A study of Mus musculus with 5 samples.

Results

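The 10 genes described here encode the inhibitor-of-DNA-binding proteins (Id1, Id2, Id3 and Id4), bone morphogenetic protein (BMP) ligands (Bmp4 and Bmp7), transforming growth factor beta (TGF-beta) ligands (Tgfb1 and Tgfb2) and inhibitory SMADs (Smad6 and Smad7). They were taken by gene symbol from a table of 22183 mouse genes, and all 10 were found. Of these, 9 had enough counts to be tested, with Bmp4 as the exception. Whole lenses were profiled by poly(A) RNA-seq at postnatal day 14 in 5 libraries, each a pool of 4 to 6 lenses. The cKO group (2 libraries) came from Yap1 f/f;Cre or Yap1 f/+;Cre mice, so that loss of 1 or both alleles could be mixed, and its lenses were picked for a severe eye phenotype of small size and a closed pupillary membrane. The Ctrl group (3 libraries) came from normal-looking littermates with floxed alleles (Yap1 f/f or f/+), which the genotype label calls WT. All groups carried at least 1 floxed Yap1 allele, and neither the Cre driver nor the sex of the mice is stated in the labels.

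BMP and TGF-beta ligands are secreted proteins that bring together type I and type II receptor kinases on the cell surface. The activated type I receptor phosphorylates receptor SMADs, of which Smad1, Smad5 and Smad9 mostly serve BMP signals and Smad2 and Smad3 mostly serve TGF-beta and activin signals, and these enter the nucleus together with Smad4. Id genes are well-known BMP-induced genes, and their products bind basic helix-loop-helix E proteins and keep them from DNA. Smad6 and Smad7 are induced by the same signals and feed back on the receptors. In the lens, BMP signalling is needed for lens induction and fibre formation, and TGF-beta can drive epithelial cells into a fibrotic state.

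The libraries held 22047553 to 25762805 counts, and abundances are given as counts scaled to library size by TMM (CPM). The gene targeted in the cKO mice, Yap1, the co-activator that the Hippo kinases hold back, was measured at 3.76 and 2.27 CPM in cKO 1 and 2, against 7.19, 6.49 and 5.49 CPM in Ctrl 1, 2 and 3. Both cKO pools lay under the lowest Ctrl pool, but the log2 fold change of -1.08 (SE 0.33) did not pass the threshold of an adjusted p under 0.05 (edgeR quasi-likelihood test with Benjamini-Hochberg adjustment, adjusted p = 0.0759). It passed under 3 of 13 alternatives: with DESeq2 (adjusted p = 0.0392) and with edgeR without cKO 1 (-1.50, adjusted p = 0.00596) or without cKO 2 (-0.76, adjusted p = 0.0498). Over all 11724 genes tested, 675 were called higher and 906 lower in cKO, and under total-count scaling the split was 1234 and 717 (63.2% of calls higher, against 42.7%). The median change of all genes was 0.16 under total-count scaling and -0.06 under TMM. The cKO libraries were less like each other (Pearson r of log2 CPM across genes 0.916) than the Ctrl libraries were (0.975 to 0.985). A set of 4 Y-linked genes summed to 2 and 0 counts in cKO 1 and 2, against 1417 to 1896 counts in the Ctrl libraries, so sex and genotype cannot be told apart in any result given here.

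Of the 9 tested members, 3 were called higher in cKO (Id1, Id2 and Bmp7) and 2 lower (Id3 and Tgfb2). The background share of called genes was 5.76% higher and 7.73% lower over all genes tested. By position alone, 4 of the 9 lay higher in both cKO libraries than in any Ctrl library and 3 lay lower, against 22.8% and 28.7% of all tested genes (51.5% in either direction). Since the members were chosen with results of these data known, these counts are a description only. Their median absolute log2 fold change was 1.04, against 0.54 over all tested genes. All 5 called members lost the call when any 1 Ctrl library was left out (edgeR adjusted p = 0.0599 to 0.164), although each kept its direction. Over all genes, leaving out a Ctrl library left 6 to 30 higher and 15 to 52 lower calls. P-values measure the spread between pools, and a pool averages several lenses. In bulk RNA, a change in the number of cells that express a gene and a change in RNA per cell cannot be told apart.

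The called Id genes moved in opposite directions. Id2 (ENSMUSG00000020644) had the highest level of the members in both groups on the authors' FPKM scale, which allows for gene length. It was measured at 194 and 177 CPM in cKO 1 and 2, against 83.6, 86.6 and 79.9 CPM in Ctrl 1, 2 and 3. The 2 cKO pools lay close together and far above all Ctrl pools. The fitted log2 fold change was 1.16 with an SE of 0.13, so Id2 rose 2.23-fold (edgeR adjusted p = 0.008).

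Id1 (ENSMUSG00000042745), a classical early BMP-response gene, was measured at 35.9 and 59.9 CPM in cKO 1 and 2 and at 25.6, 22.5 and 22.1 CPM in the Ctrl libraries. Both cKO pools lay above all Ctrl pools, but cKO 2 was much higher than cKO 1, which gave an SD of 16.9 CPM in cKO and of 1.90 CPM in Ctrl. Id1 rose 2.05-fold (log2 fold change 1.04, SE 0.23; edgeR adjusted p = 0.0386). The size of this change depended on which cKO pool was kept: it was 1.34 without cKO 1 and 0.62 without cKO 2.

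Id3 (ENSMUSG00000007872) went the other way. It was measured at 14.4 and 8.94 CPM in cKO 1 and 2, against 33.9, 27.1 and 22.3 CPM in Ctrl 1, 2 and 3. No cKO pool reached the lowest Ctrl pool. Its level in cKO was 0.421 times that in Ctrl, a log2 fold change of -1.25 with an SE of 0.28, and Id3 was called lower (edgeR adjusted p = 0.0391). The cKO pool with the higher Id1 level, cKO 2, was the one with the lower Id3 level. With 2 cKO pools, this order cannot show a link between the genes.

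Id4 (ENSMUSG00000021379), the family member with the lowest FPKM level, stood at 8.78 and 17.3 CPM in cKO 1 and 2 and at 6.73, 7.37 and 5.53 CPM in Ctrl. Both cKO pools lay above the Ctrl pools, with cKO 1 only slightly so. The log2 fold change of 1.00 (SE 0.32) did not pass (edgeR adjusted p = 0.0904; 95% interval 0.21 to 1.78). It passed under 2 of 13 alternatives, with DESeq2 (adjusted p = 0.0464) and with edgeR without cKO 1 (1.39, adjusted p = 0.00207), whereas without cKO 2 it was 0.43 (edgeR adjusted p = 0.168).

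**Figure D1:**
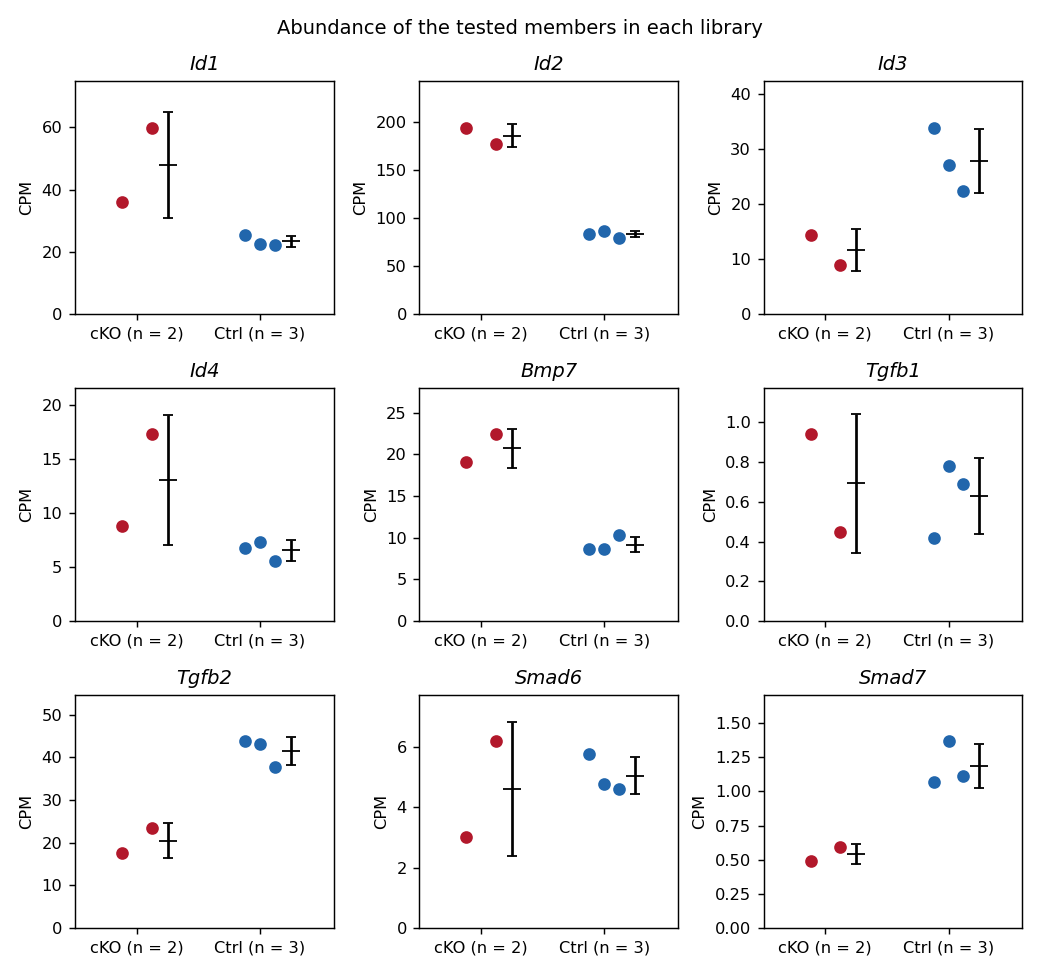
Abundance (CPM after TMM scaling, linear axes from 0) of the 9 tested members in each library, with cKO in red and Ctrl in blue and the mean and SD of each group as black bars. Id1, Id2, Id4 and Bmp7 lie higher in both cKO pools than in any Ctrl pool, Id3, Tgfb2 and Smad7 lie lower, and Tgfb1 and Smad6 overlap.

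Promoter sequences are shown for called members that moved in opposite directions. They are from RefSeq (build GRCm38.p6, whereas the deposited table used GRCm39) and 7 of the 10 members had an entry (Id2, Id3, Id4, Bmp4, Tgfb1, Tgfb2 and Smad6). Shown are the 250 bases before the start site of Id2, Id3 and Tgfb2. Capitals mark matches to 4 short motifs searched on both strands: GGCGCC (its own reverse complement) and GTCTAGAC (likewise), both known as SMAD-binding elements, the SMAD box CAGAC, and GGAATG, the core bound by TEAD factors, the DNA-binding partners of YAP. No motif contains another. Each sequence runs 5′ to 3′ on the gene's strand.
Id2: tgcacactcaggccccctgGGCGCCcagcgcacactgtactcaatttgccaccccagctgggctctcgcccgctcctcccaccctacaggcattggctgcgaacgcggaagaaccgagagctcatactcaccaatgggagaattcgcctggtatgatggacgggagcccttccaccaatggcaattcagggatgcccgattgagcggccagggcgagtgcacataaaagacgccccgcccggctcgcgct
Id3: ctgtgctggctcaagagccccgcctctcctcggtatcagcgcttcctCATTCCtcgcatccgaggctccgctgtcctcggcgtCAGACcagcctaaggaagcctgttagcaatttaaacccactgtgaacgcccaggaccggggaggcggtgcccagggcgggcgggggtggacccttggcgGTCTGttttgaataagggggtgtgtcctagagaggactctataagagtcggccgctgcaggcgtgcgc
Tgfb2: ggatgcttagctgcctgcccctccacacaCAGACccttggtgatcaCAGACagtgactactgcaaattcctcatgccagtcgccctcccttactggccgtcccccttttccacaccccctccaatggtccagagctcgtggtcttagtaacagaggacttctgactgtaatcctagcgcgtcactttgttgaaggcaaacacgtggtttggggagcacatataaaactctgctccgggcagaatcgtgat

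The Id2 window lies at chr12:25096093-25096342 on the minus strand, the Id3 window at chr4:136143572-136143821 on the plus strand and the Tgfb2 window at chr1:186705990-186706239 on the minus strand. GENCODE M21 also lists an Id2 and an Id3 transcript that begin upstream of these RefSeq start sites. The GC-rich element GGCGCC begins 231 bases before the start site of Id2 and was not found in the Id3 or Tgfb2 window. Id3 held the SMAD box at 167 and 68 bases before its start site and the TEAD core at 203 bases, and Tgfb2 held the SMAD box at 221 and 204 bases. In windows of 300 bases that include 50 bases after the start site, GGCGCC was present in 11.9% of 32851 mouse promoters, CAGAC in 49.6%, GGAATG in 14.7% and GTCTAGAC in 0.213%. Among the other members, Id4 held GGCGCC and GGAATG, and Smad6 held GTCTAGAC across its start site. These matches describe letters in the windows and not binding.

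The opposite movement of the Id genes was also read as a ratio of counts within each library, which no scaling between libraries can alter. For every Id3 count there were 2.49 and 6.70 Id1 counts in cKO 1 and 2, against 0.755, 0.829 and 0.9897 in Ctrl 1, 2 and 3. The Id1 transcript thus exceeded Id3 in counts in both cKO pools and in no Ctrl pool. This order in Ctrl holds for counts only, which do not allow for gene length. In FPKM, Id1 also lay above Id3 in Ctrl 1, 2 and 3 (24.2, 22.2 and 23.8 against 23.6, 19.7 and 17.7). The log2 ratio was 2.03 ± 1.01 in cKO and -0.23 ± 0.20 in Ctrl (SD), a difference of 2.26, and it was 2.97 without cKO 1 and 1.55 without cKO 2. For Id2 there were 13.5 and 19.8 counts per Id3 count in cKO 1 and 2, against 2.47, 3.20 and 3.58 in Ctrl. This log2 ratio was 4.03 ± 0.39 in cKO and 1.61 ± 0.27 in Ctrl, a difference of 2.42. Neither ratio overlapped between groups. The genes of each pair were chosen with their opposite directions known, so the ratios are a description with no test.

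**Figure D2:**
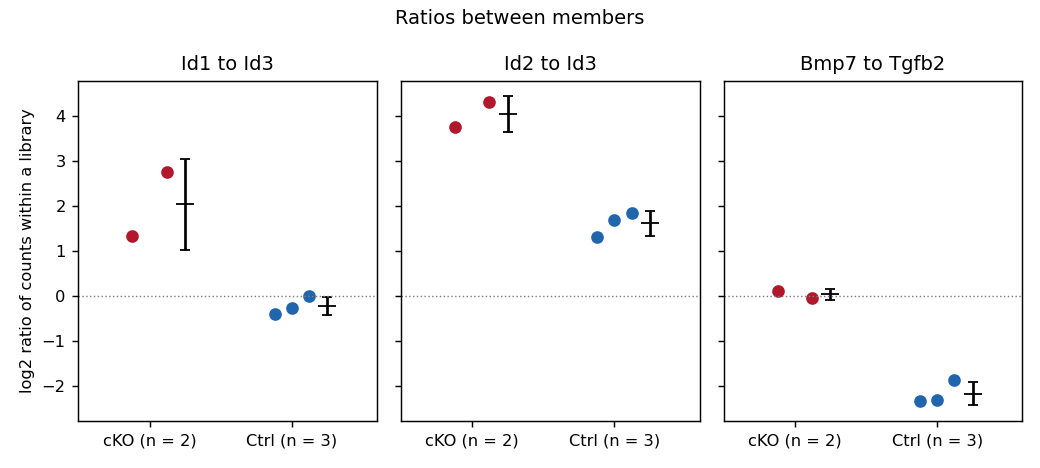
Log2 ratio of counts within each library (vertical axis) for Id1 to Id3, Id2 to Id3 and Bmp7 to Tgfb2, with cKO in red and Ctrl in blue and the mean and SD of each group as black bars. The groups do not overlap in any of the 3 ratios, and the Bmp7 to Tgfb2 ratio lies near 0 (equal counts) in both cKO pools.

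On the authors' length-scaled FPKM values, which allow levels to be compared between genes, the 4 Id genes together summed to 207 and 256 FPKM in cKO 1 and 2, against 108, 107 and 107 FPKM in the Ctrl libraries. Id2 made up 74.9 and 65.3% of this sum in cKO and 54.4 to 59.8% in Ctrl. Id3 made up 5.49 and 3.24% in cKO and 16.5 to 21.8% in Ctrl, so the Id pool of the cKO lenses held a smaller share of Id3. The share of Id1 was 18.5 and 29.4% in cKO and 20.6 to 22.3% in Ctrl, which overlap, and Id4 made up at most 2.08% in any library.

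In order of FPKM level, Id2 came first in both groups, at 161 ± 8.68 in cKO and 62.3 ± 2.84 in Ctrl (mean ± SD, n = 2 and 3). Id1 followed at 56.8 ± 26.1 in cKO and 23.4 ± 1.09 in Ctrl. In Ctrl, Id3 (20.3 ± 3.02 FPKM) overlapped with Id1, and Tgfb2 (8.997 ± 0.284 FPKM), Bmp7 (2.37 ± 0.403 FPKM) and then Id4 and Smad6 (1.596 ± 0.167 and 1.596 ± 0.117 FPKM, overlapping) came next. In cKO, Id3 (9.82 ± 2.17 FPKM) lay below Id1 and above Bmp7 without overlap, and the ranges of Bmp7 (6.23 ± 1.41 FPKM), Tgfb2 (5.203 ± 1.58 FPKM), Id4 (3.81 ± 2.14 FPKM) and Smad6 (1.74 ± 1.02 FPKM) each overlapped with the next. Smad7, Tgfb1 and Bmp4 stood last in both groups, at most 0.564 FPKM in any library.

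The ligands also divided. Bmp7 (ENSMUSG00000008999), a BMP that the developing eye needs for lens formation, was measured at 19.1 and 22.4 CPM in cKO 1 and 2, against 8.63, 8.64 and 10.3 CPM in Ctrl 1, 2 and 3. Both cKO pools lay well above all Ctrl pools and close to each other. Bmp7 rose 2.25-fold (log2 fold change 1.17, SE 0.18; edgeR adjusted p = 0.017).

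Tgfb2 (ENSMUSG00000039239), the TGF-beta ligand transcript with the highest FPKM level in these lenses, was measured at 17.6 and 23.4 CPM in cKO 1 and 2 and at 43.8, 43.2 and 37.8 CPM in Ctrl. All Ctrl pools lay above both cKO pools. Tgfb2 fell to 0.493 times the Ctrl level (log2 fold change -1.02, SE 0.18; edgeR adjusted p = 0.0232). This call depended on scaling: with library totals in place of TMM the change was -0.78 (edgeR adjusted p = 0.0569), and on log2(FPKM + 1) it was -0.71 (limma adjusted p = 0.0545).

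The Bmp7 to Tgfb2 ratio is free of that choice. There were 1.08 and 0.959 Bmp7 counts per Tgfb2 count in cKO 1 and 2, against 0.197, 0.200 and 0.272 in Ctrl 1, 2 and 3. The pair thus stood at nearly equal counts in cKO, whereas Tgfb2 led by far in Ctrl. The log2 ratio was 0.03 ± 0.12 in cKO and -2.18 ± 0.26 in Ctrl, a difference of 2.20 with no overlap. Leaving out single libraries gave differences of 2.12 to 2.35, the narrowest range of the 3 ratios.

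The other ligand members were scarce. Tgfb1 (ENSMUSG00000002603), the isoform best known from immune cells and fibrosis, had 23 and 12 counts in cKO 1 and 2 and 9, 16 and 18 counts in Ctrl. The groups overlapped, and a log2 fold change of 0.13 with a 95% interval of -1.57 to 1.83 left a wide range of changes possible at this depth (edgeR adjusted p = 0.92). Bmp4 (ENSMUSG00000021835), which the early optic vesicle uses to induce the lens, had 1 and 0 counts in cKO 1 and 2 and 0, 0 and 2 counts in Ctrl. These counts are at or below the limit of 3 counts that a count of 0 allows (0.112 to 0.146 CPM), so no fold was computed.

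**Figure D3:**
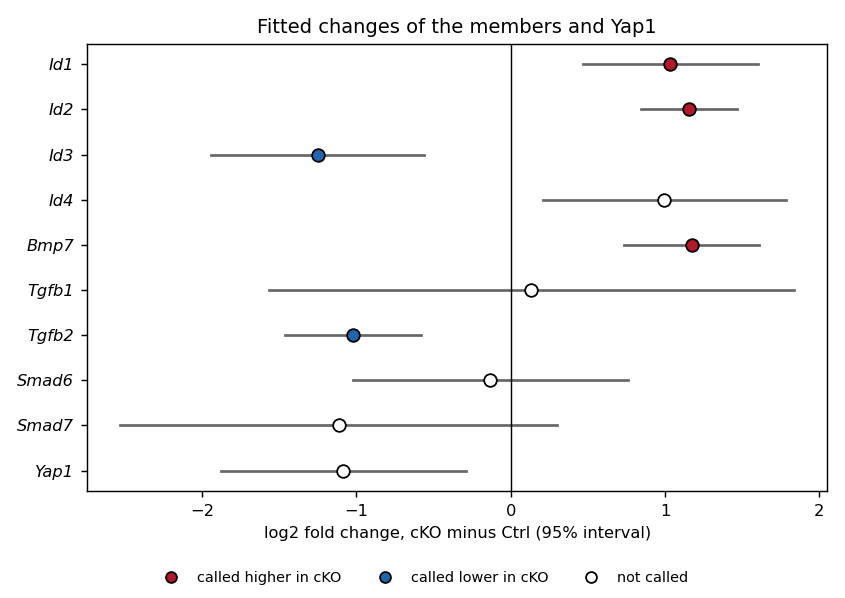
Fitted log2 fold change (cKO minus Ctrl, horizontal axis) of the 9 tested members and Yap1, with 95% intervals from the edgeR fit as lines. Id1, Id2 and Bmp7 (red) and Id3 and Tgfb2 (blue) passed the threshold, and the widest intervals belong to the low-count genes Tgfb1 and Smad7.

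Of the inhibitory SMADs, Smad6 (ENSMUSG00000036867), which acts mainly on BMP receptors, stood at 3.02 and 6.18 CPM in cKO 1 and 2 and at 5.75, 4.78 and 4.61 CPM in Ctrl. The cKO pools lay on either side of the Ctrl pools. Its log2 fold change was -0.13 (SE 0.37, edgeR adjusted p = 0.841), and the sign turned under 5 of 13 alternatives. Smad7 (ENSMUSG00000025880), which blocks both branches, had 12 and 16 counts in cKO 1 and 2, against 23, 28 and 29 counts in Ctrl. The cKO pools lay below the Ctrl pools in CPM, but the change of -1.11 (SE 0.58) did not pass (edgeR adjusted p = 0.244). Its FPKM values, 0.121 and 0.564 in cKO and 0.385, 0.297 and 0.331 in Ctrl, did not follow the counts. Relative to Ctrl 1, and after allowing for library scale, 1 Smad7 count was worth 0.606 and 1.97 times as much FPKM in cKO 1 and 2, and 0.577 and 0.726 times in Ctrl 2 and 3. For the other 8 tested members these factors lay between 0.985 and 1.04, so Smad7 alone among the tested members had a length scaling that differed widely between libraries.

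The wider pathway was described from lists by role, as counts and medians without a set test, against a background of 13.5% of tested genes called in either direction. Of the 3 tested BMP and GDF ligands, 2 rose (Bmp7 and Bmp6) and 0 fell. This count is a description only. Bmp7 is a member chosen with results of these data known. Bmp6 passed the count filter only through cKO, with 33 and 52 counts in cKO 1 and 2 and 7, 6 and 4 in Ctrl. Bmp6, best known from iron regulation in the liver, was scarce, at 1.35 and 1.94 CPM in cKO and 0.325, 0.293 and 0.154 CPM in Ctrl, and rose by 2.66 (SE 0.66, edgeR adjusted p = 0.0473). The Bmp6 call was lost without the filter on low counts (edgeR adjusted p = 0.063). Bmp2, Bmp3, Bmp5, Bmp8a, Bmp8b, Bmp10, Gdf2, Gdf5, Gdf6 and Gdf7 were too low to test, like Bmp4. Of 10 tested TGF-beta and activin ligands and latency proteins, 1 fell (Tgfb2) and 0 rose, with a list median of -0.80 against -0.06 over all tested genes. Tgfb2 is likewise a member chosen with results of these data known, so this count is a description only. That list median was -1.21 without cKO 2 and -0.48 without Ctrl 1. It was also pulled down by Ltbp4, Inhbb and Lrrc32, which passed the count filter by their Ctrl counts and were not called. Ltbp4 had 2 and 0 counts in cKO 1 and 2 and 23, 13 and 29 in Ctrl. Inhbb had 0 and 10 counts in cKO and 42, 35 and 38 in Ctrl. Lrrc32 had 9 and 0 counts in cKO and 10, 5 and 44 in Ctrl. Inhba, which encodes an activin subunit, stood at 4.98 and 0.819 CPM in cKO and at 14.9, 17.2 and 11.2 CPM in Ctrl but was not called (log2 fold change -2.32, SE 0.70; edgeR adjusted p = 0.0755). It passed under 5 of 13 alternatives, with DESeq2 (adjusted p = 0.00376), limma on log2(FPKM + 1) and log2(FPKM + 0.1) (adjusted p = 0.0168 and 0.0318), and edgeR without cKO 1 (-4.14, adjusted p = 0.000199) or without cKO 2 (-1.53, adjusted p = 0.00453).

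Among receptors, 1 of 12 tested genes rose and 0 fell. The riser was Acvr2b, a type II receptor for activins and BMPs, with 10.6 and 12.8 CPM in cKO and 4.78, 6.05 and 4.45 CPM in Ctrl (log2 fold change 1.20, SE 0.24, edgeR adjusted p = 0.0285). Bmpr1a, a type I BMP receptor, stood at 30.9 and 15.5 CPM in cKO and 11.4, 12.6 and 15.0 CPM in Ctrl and was not called (0.83; edgeR adjusted p = 0.123). The value rested on cKO 1: it was 0.23 without cKO 1 and 1.25 without cKO 2. Tgfbr1, a type I TGF-beta receptor named after its values were seen, went the other way and was not called. It stood at 4.25 and 2.79 CPM in cKO and 6.45, 11.4 and 9.25 CPM in Ctrl (-1.36, SE 0.35; edgeR adjusted p = 0.0521).

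Of 8 tested extracellular antagonists and decoys, 2 fell and 0 rose, with a list median of -1.43 (-0.78 without cKO 2). This median was pulled down by Sostdc1 and Fst, which passed the count filter by their Ctrl counts and were not called. Sostdc1 had 15 and 1 counts in cKO 1 and 2 and 34, 30 and 77 in Ctrl. Fst had 0 and 14 counts in cKO and 16, 27 and 1 in Ctrl. Chrdl1, a BMP-binding antagonist related to chordin, was measured at 2.21 and 2.57 CPM in cKO, against 14.8, 10.9 and 14.4 CPM in Ctrl, and fell by 2.48 in log2 units (SE 0.25; edgeR adjusted p = 0.00699). Nbl1, another BMP antagonist, was measured at 2.04 and 1.30 CPM in cKO, against 8.77, 8.15 and 8.18 CPM in Ctrl, and fell by 2.32 (SE 0.30, edgeR adjusted p = 0.0125). For both genes each cKO pool lay far below every Ctrl pool. Twsg1, which encodes a BMP-binding protein, stood at 33.1 and 31.3 CPM in cKO and 36.2 to 37.5 CPM in Ctrl (-0.19, edgeR adjusted p = 0.371), and its sign turned under total-count scaling and both FPKM settings. Bmper, another BMP-binding protein, stood at 15.8 and 26.7 CPM in cKO and 10.5 to 15.2 CPM in Ctrl (0.65, edgeR adjusted p = 0.171), and it passed without cKO 1 (0.97, edgeR adjusted p = 0.0107) but was 0.23 without cKO 2. Bambi stood at 3.23 and 3.31 CPM in cKO and 0.879 to 2.13 CPM in Ctrl. Fstl3 stood at 2.78 and 0.670 CPM in cKO and 4.11 to 5.32 CPM in Ctrl. Neither was called (1.09 and -1.47, edgeR adjusted p = 0.163 and 0.152), and both were named after their values were seen. Noggin (Nog) and chordin (Chrd) had 0 counts in all 5 libraries, which allows up to 3 counts in each.

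The receptor SMADs were uneven. Smad1, which carries BMP signals, was measured at 11.4 and 5.62 CPM in cKO 1 and 2, against 44.1, 54.1 and 50.4 CPM in Ctrl. It fell by 2.55 (SE 0.32, edgeR adjusted p = 0.0118), the only called gene among 7 tested SMADs. The related BMP SMAD Smad5 had a change of -0.46 (edgeR adjusted p = 0.35), and Smad9 had 0 and 1 counts in cKO and 4, 8 and 11 counts in Ctrl, too few to test. Smad2 (-0.08) and the common partner Smad4 (0.16) were not called (edgeR adjusted p = 0.801 and 0.671), and the sign of Smad2 turned under total-count scaling. Smad3 stood at 0.245 and 2.38 CPM in cKO and at 6.05 to 9.88 CPM in Ctrl and was likewise not called (-2.49, SE 0.83, edgeR adjusted p = 0.0956).

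Of 11 SMAD regulators, 1 rose and 0 fell. This was Ski, a co-repressor that binds SMADs, at 4.17 and 4.28 CPM in cKO and 1.07, 1.03 and 1.497 CPM in Ctrl (1.81, SE 0.37, edgeR adjusted p = 0.0298). The ubiquitin ligase gene Nedd4l and the co-repressor gene Skil overlapped between the groups (-0.71 and -0.27, edgeR adjusted p = 0.296 and 0.609), and Nedd4l passed without cKO 1 (-1.51, edgeR adjusted p = 0.00762) but was -0.20 without cKO 2. No call was made among the E-protein genes whose products bind Id proteins: Tcf3, Tcf4 and Tcf12 had changes of 0.21, 0.59 and -0.82 (edgeR adjusted p = 0.461, 0.0869 and 0.255; without adjustment, Tcf4 alone had a p under 0.05, at 0.0194). Tcf4 passed under total-count scaling and without cKO 2 (edgeR adjusted p = 0.0435 and 0.0159).

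Commonly used BMP target genes did not move as a block. Of 11 tested, 2 rose and 1 fell, all of them Id genes. The list holds 6 of the members, and the called Id genes are members chosen with results of these data known. This count is thus a description only. The list median was -0.13, and its sign depended on single libraries: it was 0.11 without cKO 1, -0.55 without cKO 2 and 0.013 without Ctrl 1. Msx1, a homeobox gene, stood at 7.15 and 11.7 CPM in cKO and 3.51 to 4.80 CPM in Ctrl, whereas its relative Msx2 stood at 6.78 and 7.71 CPM in cKO and 9.37 to 13.0 CPM in Ctrl, and neither was called (1.12 and -0.66, edgeR adjusted p = 0.0586 and 0.103; both were named after their values were seen). Of 9 tested TGF-beta target genes, 1 rose and 0 fell, with a median of 0.47 (0.24 without cKO 1 and 0.78 without cKO 2). The riser was Col1a1, which encodes a fibrillar collagen chain, at 2.70 and 4.73 CPM in cKO and 0.0384 to 0.371 CPM in Ctrl (4.44, SE 0.86, edgeR adjusted p = 0.0275). Col1a1 passed the count filter only through cKO, with 66 and 127 counts in cKO 1 and 2 and 8, 2 and 1 in Ctrl. Acta2, which encodes smooth-muscle actin, and the matricellular gene Ccn2 were not called (0.47 and 0.45; edgeR adjusted p = 0.172 and 0.157). Acta2 passed with limma on log2(FPKM + 1) and log2(FPKM + 0.1) (adjusted p = 0.0445 and 0.043), and Ccn2 passed without cKO 2 (0.62, edgeR adjusted p = 0.0236) but was 0.24 without cKO 1.

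**Figure D4:**
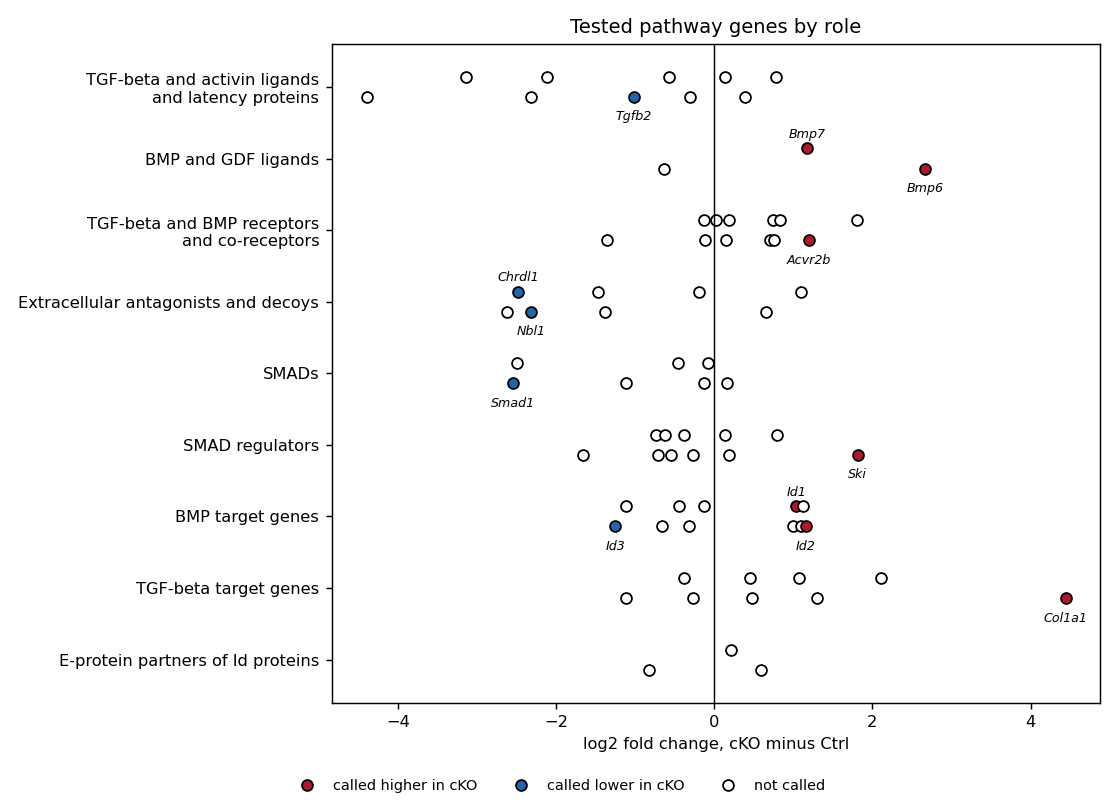
Log2 fold change (cKO minus Ctrl, horizontal axis) of every tested gene of the 9 role lists, 1 point per gene, offset vertically only for legibility. Called genes are filled and named, among them Chrdl1, Nbl1 and Smad1 between -2.6 and -2.3, and genes in more than 1 list appear in each.

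The pathway annotation in the deposited table gives a list that was not assembled by role. It assigns 95 genes to TGF-beta signalling, all 10 members among them, and 7 members to Hippo signalling (Id1, Id2, Bmp4, Bmp7, Tgfb1, Tgfb2 and Smad7). Of the 95, 64 were tested, and 7 rose and 7 fell (21.9% called, against 13.5% of all tested genes). That share includes the members, which were chosen with results of these data known. Without the members, 4 of 55 rose and 5 fell, against 5.76% and 7.73% of all tested genes. Besides the genes above, and named after their values were seen, these were Mapk3 (ERK1 kinase; 1.10, edgeR adjusted p = 0.0145) and Ppp2cb (a phosphatase subunit; 1.43, edgeR adjusted p = 0.0475) among the risers, and Neo1 (a co-receptor for repulsive guidance molecules; -1.61, edgeR adjusted p = 0.0101), Thbs1 (thrombospondin 1, an activator of latent TGF-beta; -3.58, edgeR adjusted p = 0.0448) and Cul1 (a ubiquitin ligase scaffold; -0.71, edgeR adjusted p = 0.0344) among those that fell. Each of the 7 called role-list genes that are not members (Bmp6, Acvr2b, Chrdl1, Nbl1, Smad1, Ski and Col1a1) lost its call without any 1 Ctrl library (edgeR adjusted p = 0.0575 to 0.175) and kept its direction.

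Markers of the cell types a lens sample can hold were set beside these results. The labelled tissue was borne out by its markers: 11 lens fibre markers summed to 94569 and 51273 CPM in cKO 1 and 2 and to 203214 to 218606 CPM in Ctrl, with 4 called lower and 0 higher. Most of this sum came from Crygb (59677 and 27107 CPM in cKO, 110086 to 122981 CPM in Ctrl). Mip (1515 and 2385 CPM in cKO, 1730 to 2087 CPM in Ctrl), Lim2 and Gja3 overlapped between the groups and were not called (0.04, -0.23 and 0.17). The sum thus does not stand for all fibre genes. The 11 lens epithelium markers summed to 1631 and 3113 CPM in cKO 1 and 2 and to 2818 to 2903 CPM in Ctrl, so the sum overlapped. Most of it came from Dkk3 (906 and 1885 CPM in cKO) and Sfrp1 (264 and 573 CPM), neither of them called. Of the 11, 4 were called lower (Cdh1, Pax6, Gja1 and Npnt) and 0 higher. Cdh1 stood at 0.0408 and 0 CPM in cKO 1 and 2, against 25.8, 21.5 and 37.9 CPM in Ctrl. Gja1 stood at 1.47 and 0.745 CPM in cKO, against 63.8, 38.0 and 49.9 CPM in Ctrl. Macrophage markers moved with genotype: 14 genes summed to 159 and 40.7 CPM in cKO 1 and 2 and to 1.76 to 4.08 CPM in Ctrl. Ptprc was at 0 in all Ctrl libraries. Of 10 tested, 9 were called higher. Most of these passed the count filter only through cKO (C1qa had 561 and 207 counts in cKO 1 and 2, against 6, 0 and 3 in Ctrl). The count of calls was thus in part set by the filter and is a description only. Vascular endothelial markers summed to 35.5 and 31.1 CPM in cKO and 15.5 to 24.0 CPM in Ctrl, with 0 of 9 tested called. Single genes of this list went both ways. Tek stood at 2.33 and 2.23 CPM in cKO and 3.17 to 4.82 CPM in Ctrl (-0.88). Kdr overlapped between the groups (-1.13), and the other tested ones had positive changes. The part of fibre, epithelial, macrophage and endothelial RNA in the changes of the Id, BMP and TGF-beta genes was not tested.

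The summed pericyte and fibroblast markers overlapped between the groups (52.3 and 50.8 CPM in cKO 1 and 2, 45.6 to 55.3 CPM in Ctrl), but single genes moved in opposite directions. Col1a1 was called higher. Pdgfra was called lower, at 1.96 and 0 CPM in cKO and 19.7 to 20.5 CPM in Ctrl. Rgs5 stood at 27.1 and 31.4 CPM in cKO and 12.6 to 22.6 CPM in Ctrl and was not called. Dcn encodes the TGF-beta-binding proteoglycan decorin. It had 275 counts in cKO 1 and 0 in cKO 2, against 0, 2 and 0 in Ctrl, and so was not tested. Retinal neuron markers summed to 7.80 and 1.86 CPM in cKO and 2.11 to 45.6 CPM in Ctrl, erythrocyte markers to 65.6 and 2.20 CPM in cKO and 5.42 to 50.01 CPM in Ctrl, and pigment and ciliary epithelium markers to 3.84 and 0.819 CPM in cKO and 3.81 to 5.49 CPM in Ctrl. Corneal epithelium markers were all at 0 in cKO and summed to 2.80 to 9.0004 CPM in Ctrl, nearly all of it from Aldh3a1.

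Genes with the most similar pattern were found by Euclidean distance over the 5 libraries of log2(CPM + 0.5), centred on each gene's mean, among 4285 other genes with a mean of at least 10 CPM. Closest to Id1 were Itm2b, Erp29 and Glmp (distances 0.161, 0.186 and 0.204). Closest to Id3 were Tacc2, Trim44 and Ddt (0.228, 0.260 and 0.272). Bmp7 was nearest to mt-Co1, Taf13 and Setd6 (0.0993, 0.0996 and 0.136), and Tgfb2 to Senp2, Kansl3 and Pacsin2 (0.104, 0.122 and 0.170). With 5 libraries in 2 groups, such distances mostly reflect the group difference and its spread.

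Id1, Id2, Id3, Bmp7 and Tgfb2 kept their direction under all 13 alternatives run. Each of Id1, Id2, Id3 and Bmp7 passed the threshold under 9 of them and Tgfb2 under 6, and none passed without a Ctrl library.

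**Figure D5:**
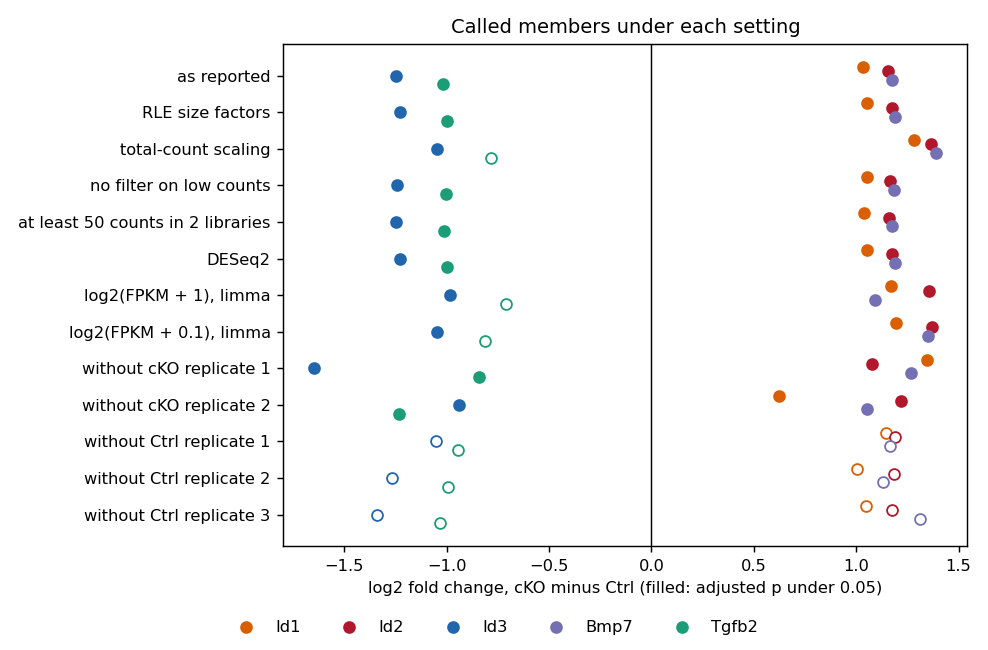
Log2 fold change (cKO minus Ctrl, horizontal axis) of Id1, Id2, Id3, Bmp7 and Tgfb2 as reported and under 12 of the 13 alternatives (vertical axis; the fit with a replicate block is not drawn), with filled points where the adjusted p was under 0.05. The signs are the same in every setting drawn, and all points are open where a Ctrl replicate was left out.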

How the data were processed

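The authors deposited 1 table with an expected count and an FPKM value per gene and library. Trimmomatic 0.18.0, RSEM and GRCm39 were used, per the submitters' processing notes, which as supplied give neither their order nor the read aligner or strandedness. Deposited expected counts are estimates of reads per gene, not scaled between libraries, per the values; the deposited FPKM values are scaled to length and library size by the authors, per the file headers. All 50 count values of the 10 members were whole numbers, whereas 6.03 to 7.47% of values in a library were not.

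Counts were rounded, filtered with filterByExpr (minimum count 10, total 15), scaled by TMM and tested with glmQLFit and glmQLFTest (quasi-likelihood; edgeR 4.0.16, limma 3.58.1, DESeq2 1.42.0, R 4.3.3), cKO minus Ctrl, 2 against 3 libraries, no covariates. P-values were Benjamini-Hochberg adjusted over 11724 genes. SEs come from the F statistic and 95% intervals from its degrees of freedom. Ratios within a library used counts with 0.5 added. Their planned two-sided exact permutation test is not used, since 2 against 3 libraries cannot go below p = 0.1. A limit of 3 counts for a count of 0 covers counting error only. The members and lists were chosen with earlier results of these data known. Named genes are the members, Yap1, up to 6 called and the 2 most abundant tested genes of each list, and the 3 nearest patterns of Id1, Id3, Bmp7 and Tgfb2; others are said to be named after their values were seen. Smad3, Smad4, Smad5, Smad9, Tcf12, Nog, Chrd and Dcn are outside that rule and were chosen after their values were seen. The same holds for Ltbp4, Inhbb, Lrrc32, Sostdc1, Fst and the single cell type markers named. Alternatives were other scaling, filters, DESeq2, limma on log2 FPKM, leaving out each library, and a replicate block.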

Additional observations from a re-analysis of the deposited data

How the results depend on the processing

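With 2 and 3 pools, significance rests on every Ctrl library. Leaving out 1 library at a time gave 6 to 2197 higher and 15 to 2964 lower genes over the table (6 to 30 and 15 to 52 without a Ctrl library; with a lone cKO library its spread is assumed to equal that of the controls), 0 to 4 higher and 0 to 2 lower members, and log2 fold changes of 0.62 to 1.34 (Id1), 1.08 to 1.22 (Id2), -1.65 to -0.94 (Id3), 1.05 to 1.31 (Bmp7) and -1.23 to -0.84 (Tgfb2). Replicate numbers 1 and 2 are shared by the groups, but nothing in the labels ties same-numbered pools. Their deviations from the group means correlated at 0.111 and -0.0834 across genes. With 2 cKO libraries, the deviations of cKO 1 and 2 are equal and opposite, so these values are not separate checks of pairing. With the replicate block, 68 genes were higher, 107 lower and 0 members called in either direction; the members' changes were 0.95 (Id1), 1.13 (Id2), -1.41 (Id3), 1.26 (Bmp7) and -1.10 (Tgfb2), and the ratios 2.37 (Id1 to Id3), 2.54 (Id2 to Id3) and 2.35 (Bmp7 to Tgfb2). Total-count scaling, which shifted the median of all genes to 0.16, gave 1234 higher genes and 1 lower member (Tgfb2 -0.78 not called). The table held 1209 higher and 1521 lower genes with DESeq2, 1380 higher with log2(FPKM + 1) and 1402 with log2(FPKM + 0.1); both FPKM settings left 1 lower member (Tgfb2 -0.71 and -0.81). RLE factors and both filters changed no member's call. Signs turned for 5 named genes that were not called: Tgfb1 (-0.50 to 0.57 over left-out libraries, -0.06 without Ctrl 1), Smad6 (0.13 by totals, 0.029 and 0.0034 with FPKM + 1 and + 0.1, -0.74 to 0.28 over left-out libraries), Twsg1 (0.023, 0.23 and 0.26 by totals and the FPKM settings), Smad2 (0.12, 0.19 and 0.22 likewise, -0.23 to 0.044 over left-out libraries) and Skil (-0.66 to 0.028 over left-out libraries). The cause of these turns was not tested. The 3 ratios kept their direction under every alternative run. Depth limits Bmp4, Tgfb1 and Smad7, whose counts were 29 or fewer per library.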
